A study of Homo sapiens with 4 samples.

Results

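Genes of the mitochondrial respiratory chain were followed on 4 Affymetrix U133 arrays of LAPC4 cells, an established androgen-sensitive human prostate cancer line. Members were taken by symbol, current or former: all probe sets annotated to nuclear genes whose names start with NDUFA, NDUFB, NDUFC, NDUFS, NDUFV, SDHA to SDHD, UQCR, COX4 to COX8 or ATP5. Of 91 matching symbols, 78 genes had a probe set of their own, 6 had only probe sets shared with another gene, and 7 were left out as pseudogenes, an antisense gene, read-through genes or a neighbouring gene with an old COX4 name. A signal above the minimum of 20 was present on at least 1 array for 76 of the 78 genes, out of 9193 genes measured in all. NDUFAF5 and NDUFAF7 stayed below that minimum. The 76 comprised 67 structural subunits (28 of complex I, 3 of complex II, 7 of complex III, 14 of complex IV and 15 of complex V) and 9 other genes, which are assembly factors, the inhibitor of complex V, a supercomplex factor and genes that carried an ATP5 name in the past. Subunits without a probe set of their own were not analysed here, nor were the mitochondrially encoded subunits, which the array annotation used here does not name.

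Cells carried either a β-TrCP shRNA or a GFP control and were kept for 72 hours in medium with charcoal stripped serum (CSS) or full fetal calf serum (FCS), each at 10%. CSS is depleted of androgens, and the FCS medium was supplied with 100 pM methyltrienolone, a synthetic androgen. The 4 conditions were thus shRNA with CSS (the combined treatment), shRNA with FCS, control with CSS and control with FCS, with 1 array each. The study used these arrays to look for pathways behind the growth effect of β-TrCP depletion together with androgen ablation. The labels call the control GFP, whereas the study's text describes cells with the inducible shRNA vector and no doxycycline, or the vector alone, so that an effect of the shRNA cannot be told apart from one of doxycycline or of the vector. CSS and the FCS medium differ in serum as well as in the added androgen, and these cannot be told apart either. Because each condition had a single array, no spread between cultures is known, and the number of arrays limits the precision of every value.

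The respiratory chain sits in the inner mitochondrial membrane. Complex I (NADH dehydrogenase) and complex II (succinate dehydrogenase, which is also an enzyme of the citrate cycle) pass electrons to ubiquinone, complex III hands them to cytochrome c, and complex IV passes them to oxygen. Complexes I, III and IV pump protons, and complex V (ATP synthase) uses the proton gradient to make ATP. Most subunits are encoded in the nucleus, and the transcription factors NRF1 and GABP are known to act at many of their promoters.

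The shRNA is directed at both β-TrCP genes. Of these, FBXW11 (β-TrCP2) had a log2 signal of 4.68 in shRNA CSS cells, 5.02 in shRNA FCS cells, 8.19 in control CSS cells and 8.02 in control FCS cells, and BTRC (β-TrCP1) was at the floor of 4.32 on both shRNA arrays, against 4.64 in control CSS cells and 4.50 in control FCS cells. The prostate epithelial genes KRT8, KRT18, EPCAM, HOXB13, KLK2, KLK3 and TMPRSS2 were measured on all arrays. Markers of other cell types were dim, with a summed signal of 178 on the combined array and 113 to 118 on the other arrays for 5 fibroblast genes, and of 114 on the combined array and 66.1 to 67 on the others for 3 leukocyte genes. Of these, CD3E was at the floor on all 4 arrays, CD14 had 4.98 on the combined array and the floor on the others, and CD79A had 5.97 on the combined array and 4.71 to 4.75 on the others. Arrays stood apart in 3 ways. The deposited log2 values of the combined array had an interquartile range of 2.07, against 2.68 to 2.74 on the others. The combined array correlated with the others at 0.923 to 0.925 over the kept probe sets, against 0.978 to 0.989 among the other 3. On the control CSS array, the 3′ probe set of ACTB exceeded the 5′ probe set by 1.03 on the log2 scale, against 0.44 in shRNA CSS cells, 0.41 in shRNA FCS cells and 0.45 in control FCS cells. For GAPDH this difference was 0.18 in control CSS cells, 0.03 in shRNA CSS cells and -0.01 on both other arrays. The part of these differences in the results below was not tested. Values below are quantile normalized log2 signals of the brightest probe set of each gene, and a change is the difference of 2 arrays on that scale. Since each condition had 1 array, a change was set beside the local spread, which is 1.48 times the median absolute deviation of the changes of the 1000 probe sets nearest in signal.

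Promoters are shown for 4 members named in the CSS results: both complex II genes with a RefSeq promoter entry, and 2 complex I genes. In the test of main effects described below, SDHA and NDUFB8 were called for CSS, whereas SDHD and NDUFA5 were not. Each run gives 300 bases of the gene's strand, from 250 bases before to 50 after an annotated start (RefSeq, GRCh38.p14), with capitals for the motifs searched on both strands. These were CGCANGCG, the core of the NRF1 motif; CCGGAAG, the core of the GABP motif and of other ETS motifs; and AAGATGGC, a YY1 motif.
SDHA, chr5:218070-218369, plus strand: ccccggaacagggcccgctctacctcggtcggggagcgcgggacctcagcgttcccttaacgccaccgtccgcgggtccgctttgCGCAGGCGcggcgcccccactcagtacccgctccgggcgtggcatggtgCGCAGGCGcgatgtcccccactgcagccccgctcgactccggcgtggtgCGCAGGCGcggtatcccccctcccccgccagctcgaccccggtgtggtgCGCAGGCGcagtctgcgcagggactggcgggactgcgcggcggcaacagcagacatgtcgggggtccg
SDHD, chr11:112086623-112086922, plus strand: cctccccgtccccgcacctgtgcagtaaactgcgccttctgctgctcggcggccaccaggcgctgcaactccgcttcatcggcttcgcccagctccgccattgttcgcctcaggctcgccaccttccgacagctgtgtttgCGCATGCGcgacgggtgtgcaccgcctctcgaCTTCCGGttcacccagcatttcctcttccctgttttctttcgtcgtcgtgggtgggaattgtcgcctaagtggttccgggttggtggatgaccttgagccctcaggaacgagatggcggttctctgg
NDUFB8, chr10:100529822-100530121, minus strand: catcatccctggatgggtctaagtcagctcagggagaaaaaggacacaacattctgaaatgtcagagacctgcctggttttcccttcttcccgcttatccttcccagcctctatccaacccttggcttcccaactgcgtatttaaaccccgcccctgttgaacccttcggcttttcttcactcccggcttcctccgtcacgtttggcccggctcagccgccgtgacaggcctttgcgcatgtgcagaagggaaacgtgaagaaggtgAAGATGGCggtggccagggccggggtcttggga
NDUFA5, chr7:123557769-123558068, minus strand: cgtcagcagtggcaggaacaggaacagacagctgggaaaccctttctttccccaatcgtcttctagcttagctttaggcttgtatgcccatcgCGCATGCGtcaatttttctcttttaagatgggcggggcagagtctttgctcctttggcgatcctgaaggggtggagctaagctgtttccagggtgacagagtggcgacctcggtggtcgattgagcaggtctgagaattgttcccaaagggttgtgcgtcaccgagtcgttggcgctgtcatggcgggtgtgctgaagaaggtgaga
The SDHA window held 4 NRF1 cores, the SDHD window 1 NRF1 core and 1 ETS core (read as CTTCCGG on this strand), the NDUFA5 window 1 NRF1 core and the NDUFB8 window 1 YY1 motif near its start. NDUFB8 has another entry and NDUFA5 has 2 others, in which none of the 3 motifs was present. Among members called for CSS but not shown, ATP5MC1 held none of the 3 motifs. NDUFA6 held 1 NRF1 core and 1 YY1 motif, and COX6B1 held 1 ETS core. Promoter entries were found for 58 of the 67 subunits, and 22 of these (37.9%) held the NRF1 core in at least 1 entry, against 21.4% of 7448 measured genes with an entry. The ETS core was in 18 (31.0%), against 20.8% of measured genes, and the YY1 motif in 11 (19.0%), against 6.70%. By complex, the NRF1 core was in 10 of 27 complex I genes, 2 of 2 complex II genes, 3 of 5 complex III genes, 1 of 12 complex IV genes and 6 of 12 complex V genes, whereas the ETS core was in 5 of the 12 complex IV genes. A match is a description of the sequence and not a binding site.

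Over the 67 subunits, changes were small. With the combined treatment the median log2 change was -0.07 (quartiles -0.18 and 0.09), against 0.03 for all genes (quartiles -0.37 and 0.42). It was 0.06 for shRNA in FCS, against 0.00 for all genes, and -0.07 for CSS alone, against 0.02 for all genes. In the remaining pair of comparisons the median was 0.02 for shRNA in CSS (all genes 0.01) and -0.13 for CSS in shRNA cells (all genes 0.03). For CSS in shRNA cells 51 of 67 subunits were lower, where 47.8% of all genes were. For CSS alone 44 of 67 were lower, against 46.7% of all genes, and with the combined treatment 40 of 67, against 47.4%. With the shRNA 26 of 67 were lower in FCS (all genes 49.9%) and 30 of 67 in CSS (all genes 49.3%). Counts that use the combined array moved with the scaling. On the deposited values 63 subunits were lower for CSS in shRNA cells (all genes 60.2%), 57 with the combined treatment (all genes 59.9%) and 53 for shRNA in CSS (all genes 62.7%), whereas with a common median of the arrays these were 38 (all genes 45.5%), 33 (all genes 44.1%) and 16 (all genes 45%). For CSS alone 47 of 66 were lower on the deposited values (all genes 45.9%) and 49 of 66 with a common median (all genes 49.1%). Relative to the median of all genes, 52 subunits were lower for CSS in shRNA cells, 50 on the deposited values and 49 with a common median. The counts were similar beside genes of like brightness. Of 50 subunits with a mean signal of at least 9.09, 42 were lower for CSS in shRNA cells, against 52.3% of the 773 genes that bright, and 32 were lower for CSS alone, against 48.1%.

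**Figure D1:**
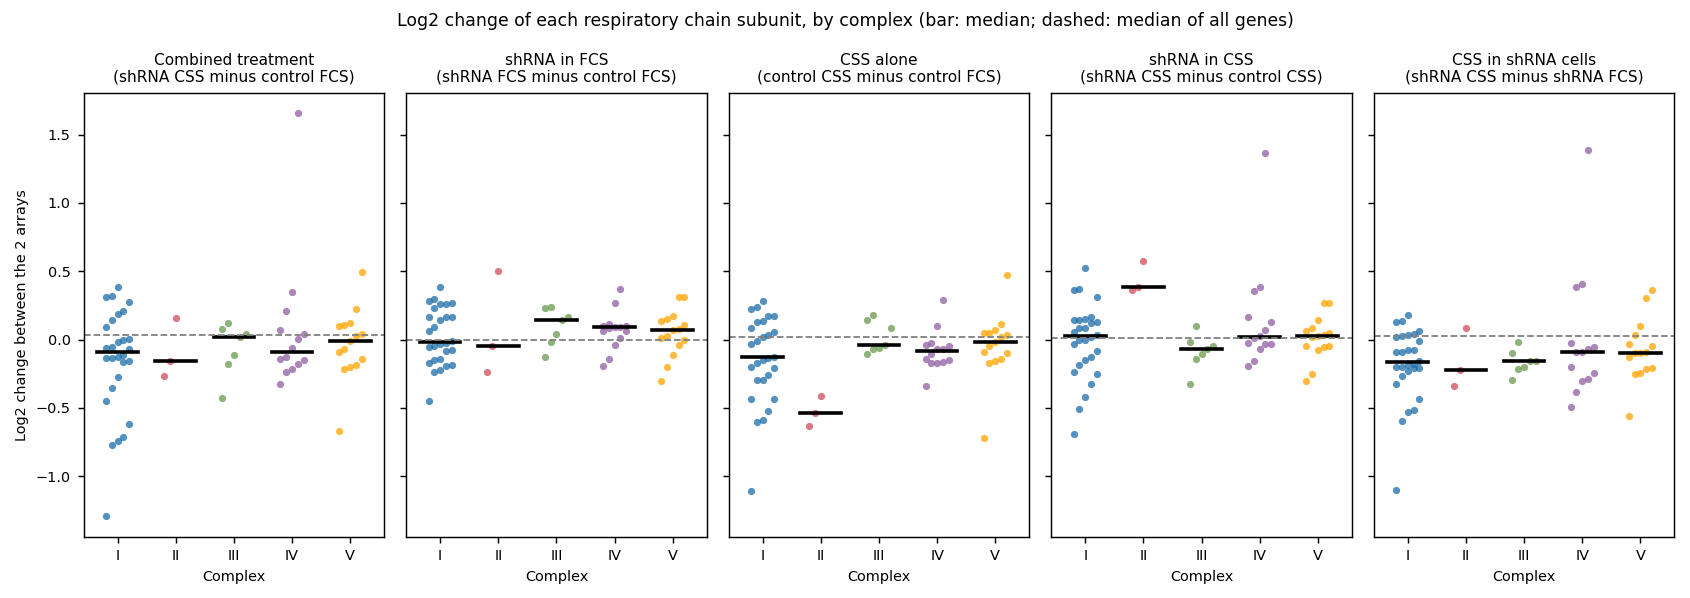
Log2 change between 2 arrays (vertical axis) for each of the 67 respiratory chain subunits, by complex (horizontal axis), in 5 comparisons. Each point is a gene, bars are medians of the complex and the dashed line is the median of all genes. The 3 complex II points lie between -0.63 and -0.42 for CSS alone and between 0.36 and 0.57 for shRNA in CSS. COXFA4L2 is the isolated high point of complex IV in the comparisons that use the combined array.

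Changes of at least 2-fold were rare among the subunits. With the combined treatment COXFA4L2 was 3.16-fold higher and NDUFA5 2.45-fold lower, so that 1 of 67 subunits passed in each direction, beside 7.98% of all genes at 2-fold higher or more and 6.9% at 2-fold lower or more. For CSS alone NDUFB8 was 2.16-fold lower and no subunit was 2-fold higher (all genes 0.138% lower and 0.163% higher). For shRNA in FCS no subunit passed in either direction (all genes 0.401% lower and 0.802% higher). Beyond the local spread, 14 of 67 subunits were lower for CSS alone (all genes 16.4%) and 3 were higher (all genes 19.9%). These 14 included COX6A2 and COX7A1, which lay near the floor, where the local spread is small. For CSS in shRNA cells 20 of 67 were lower beyond the spread (all genes 15%) and 3 were higher (all genes 21.9%). With the combined treatment 11 were lower (all genes 14.5%) and 6 were higher (all genes 21.6%). For shRNA in FCS 5 were lower (all genes 19.1%) and 8 were higher (all genes 18.2%), and for shRNA in CSS 8 were lower (all genes 15.2%) and 10 were higher (all genes 21.1%). COX6A2 and COX7A1 were also among the 5 lower for shRNA in FCS. COX6A2 was also among the genes higher with the combined treatment, for CSS in shRNA cells and for shRNA in CSS.

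The comparison of CSS with FCS was made in shRNA cells and again in control cells, on arrays that these comparisons do not share. Of the 67 subunits 38 were lower with CSS in both, where 28.1% of 7853 genes were. Complex I had 14 of 28, complex II 2 of 3, complex III 4 of 7, complex IV 10 of 14 and complex V 8 of 15. These counts hold for the main setting only. With a common median 5 of 14 complex IV and 5 of 15 complex V genes were lower for CSS in shRNA cells (all genes 45.5%). The counts of these complexes in both comparisons are thus smaller there. As deposited, 11 and 14 were lower for CSS in shRNA cells (all genes 60.2%). Beyond the local spread in both were NDUFB8, NDUFA6, NDUFA5, NDUFC1, COX6B1 and ATP5MC1, which is 6 of 67 subunits, where 5.2% of all genes were. For CSS in shRNA cells NDUFC1 was -0.20 in the main setting, -0.11 with a common median and -0.38 as deposited. The shRNA was likewise compared with control in CSS and in FCS on separate arrays. Higher in both were 25 of 67 subunits, where 26.1% of all genes were, and SDHD, COXFA4L2, ATP5F1B and ATP5MC3 were beyond the local spread in both, which is 4 of 67, where 3.12% of all genes were. The other ATP5MC3 probe set was within the local spread for shRNA in CSS.

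**Figure D2:**
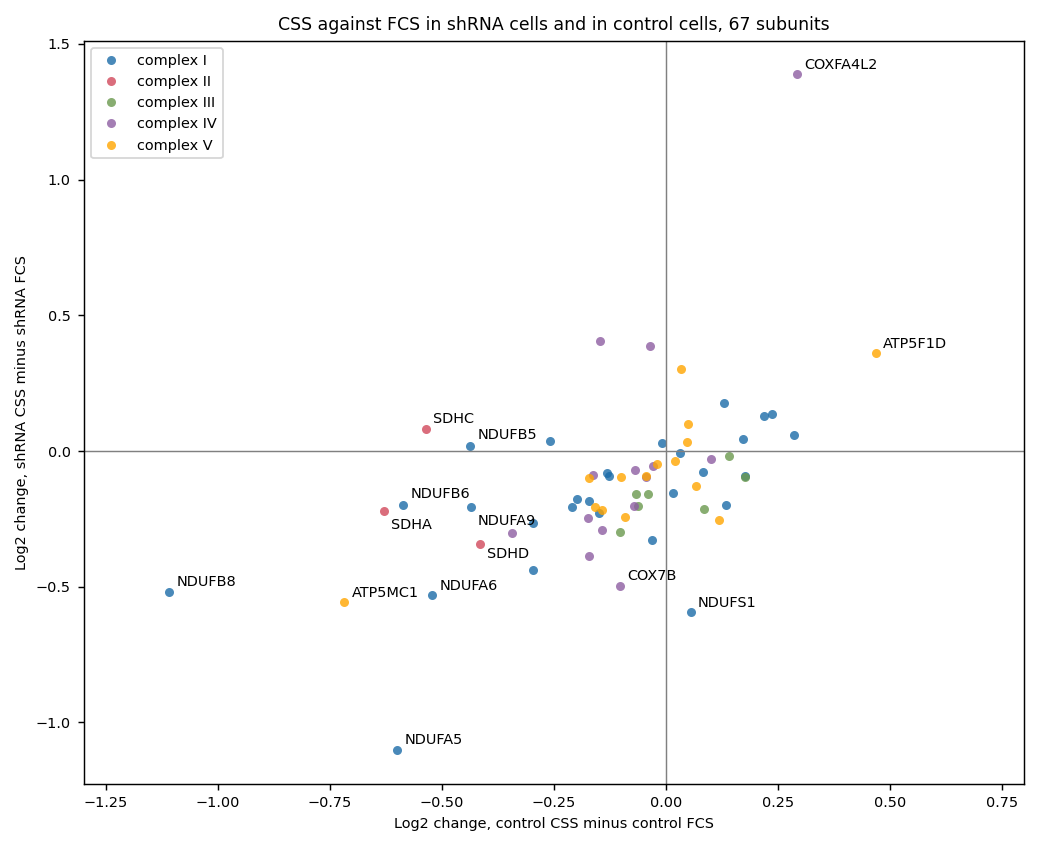
Log2 change with CSS in shRNA cells (vertical axis) and in control cells (horizontal axis) for the 67 subunits, coloured by complex. Each point is a gene, and the lower left part holds the 38 subunits that were lower with CSS in both, with NDUFB8 at -1.11 in control cells and NDUFA5 at -1.10 in shRNA cells farthest out.

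Main effects of serum and of the shRNA were tested with limma over all 4 arrays, in an additive fit with 1 residual degree of freedom and no interaction term. The variance of each gene came from a trend on signal, since limma gave infinite prior degrees of freedom. For CSS, 5 of 67 subunits were called at an adjusted p of 0.05, all of them lower, while 2.64% of 8858 genes were called. For the shRNA 1 of 67 was called, against 3.94% of genes. Without the trend no subunit was called, nor any gene, for either factor, and the unadjusted p was below 0.05 for 3 subunits for CSS and 0 for the shRNA. The calls thus rest on the variance trend.

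Complex I had 2 of the 5 subunits called for CSS, among its 28. NDUFB8, an accessory subunit of the membrane arm, had a log2 signal of 9.47 in shRNA CSS cells, 9.99 in shRNA FCS cells, 9.10 in control CSS cells and 10.21 in control FCS cells. Both CSS arrays lay below both FCS arrays. Its main effect of CSS was -0.81 (SE 0.11, limma adjusted p = 2.99e-11), and with the combined treatment it was 1.68-fold lower. The change of NDUFB8 with CSS was -1.11 in control cells and -0.52 in shRNA cells. That difference does not enter the SE, which comes from the variance trend. A dimmer probe set gave the same order of CSS below FCS, with 9.12 in shRNA CSS cells, 10.00 in shRNA FCS cells, 9.17 in control CSS cells and 10.10 in control FCS cells. NDUFA6, an accessory subunit of the LYR motif family, had 9.55 in shRNA CSS cells, 10.08 in shRNA FCS cells, 9.80 in control CSS cells and 10.32 in control FCS cells. Again both CSS arrays lay below both FCS arrays, with a main effect of CSS of -0.53 (SE 0.10, limma adjusted p = 3.74e-05), a call that was lost with the mean over probe sets and without the trend. Its dimmer probe set differed less, by -0.15 for CSS alone and -0.40 for CSS in shRNA cells, and by 0.26 rather than -0.24 for shRNA in FCS.

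NDUFA5, an accessory subunit of the peripheral arm, had a signal of 6.40 in shRNA CSS cells, 7.50 in shRNA FCS cells, 7.09 in control CSS cells and 7.69 in control FCS cells. It was lowest with the combined treatment, at -1.29 against control FCS cells (local spread 0.55), and its main effect of CSS was -0.85 (SE 0.27, limma adjusted p = 0.0586). NDUFA7 had 7.46 in shRNA CSS cells, 7.73 in shRNA FCS cells, 7.88 in control CSS cells and 8.17 in control FCS cells, which is -0.71 for the combined treatment and no call for either factor. NDUFS4, a subunit needed for the assembly of the NADH-oxidizing end of the complex, had 7.50 in shRNA CSS cells, 7.93 in shRNA FCS cells, 7.82 in control CSS cells and 8.12 in control FCS cells. Both genes stood highest in control FCS cells and lowest with the combined treatment.

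Core subunits of complex I gave values of both signs. NDUFV1, which binds NADH and the flavin, had 10.29 in shRNA CSS cells, 10.23 in shRNA FCS cells, 10.26 in control CSS cells and 9.97 in control FCS cells, and was thus lowest in control FCS cells. NDUFV2 was 9.75 in shRNA CSS cells, 9.84 in shRNA FCS cells, 9.78 in control CSS cells and 9.61 in control FCS cells. NDUFS1, an iron-sulfur subunit, had a signal of 7.22 in shRNA CSS cells, against 7.67 to 7.81 on the other 3 arrays, a change of -0.45 with the combined treatment. NDUFS3 and NDUFS7 lay between -0.26 and 0.16 in the comparisons with control FCS cells, and none of these 5 core subunits was called. NDUFS6 was 0.39 higher for shRNA in FCS (local spread 0.25) and 0.05 higher for shRNA in CSS. Over all 28 subunits of complex I the median was -0.09 with the combined treatment (-0.30 as deposited and -0.02 with a common median), -0.02 for shRNA in FCS and -0.13 for CSS alone, and the subunits ranged between -1.29 and 0.39 with the combined treatment.

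**Figure D3:**
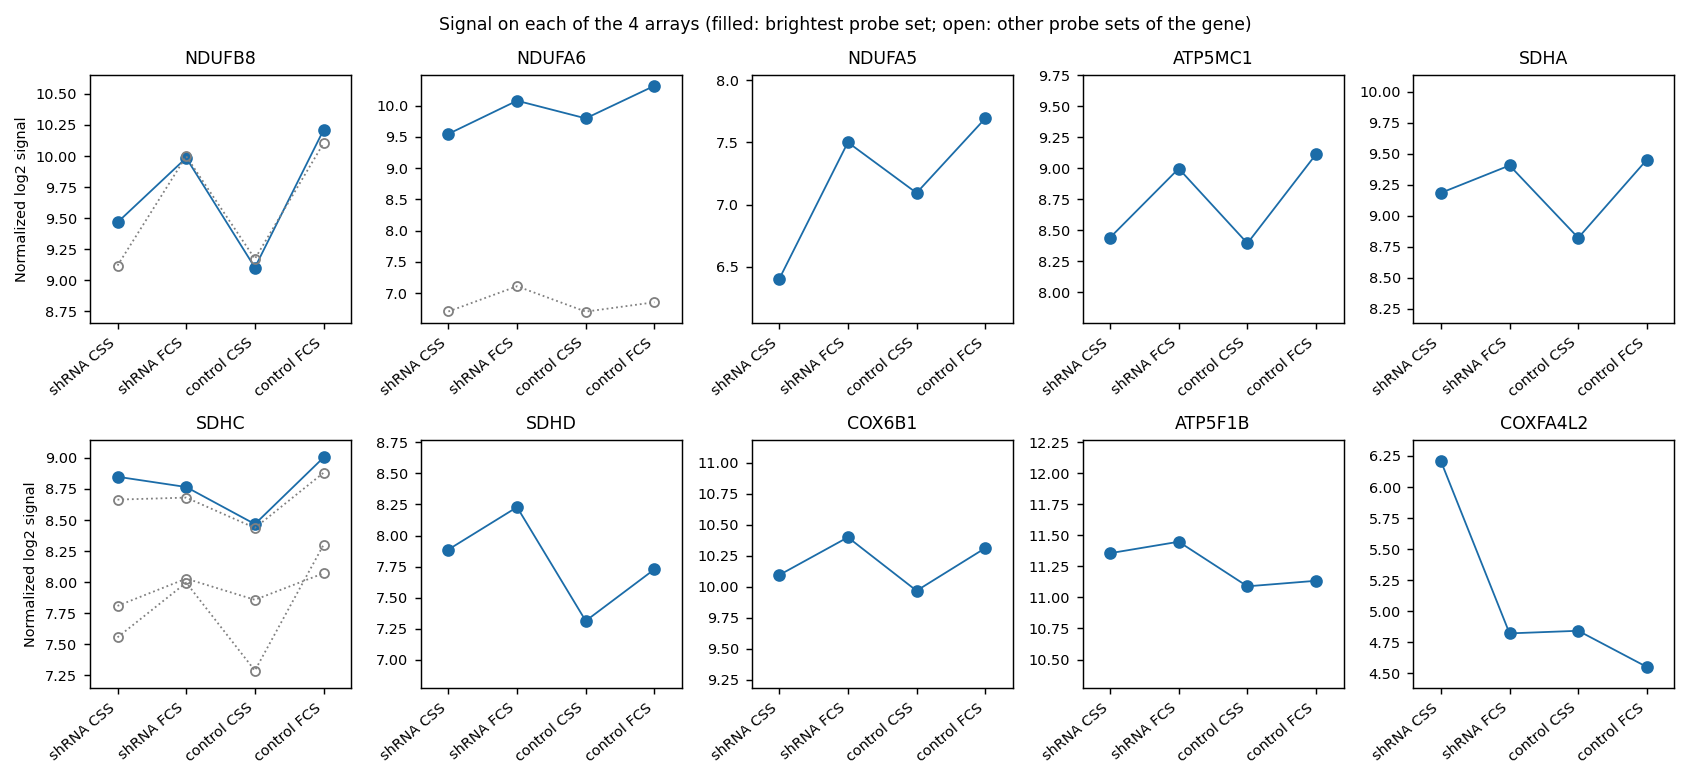
Normalized log2 signal (vertical axis) of 10 members on the 4 arrays (horizontal axis, 1 array per condition), with lines that join the values of a probe set. Filled points are the brightest probe set and open points other probe sets of the gene. NDUFB8, NDUFA6, NDUFA5, ATP5MC1 and COX6B1 are lower on both CSS arrays than on both FCS arrays, while SDHA and SDHC have their lowest value in control CSS cells.

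Complex II had the lowest median of the 5 complexes for CSS alone, at -0.54, with all 3 measured subunits lower beyond their local spread. The 3 genes encode the flavoprotein (SDHA) and the membrane anchors (SDHC and SDHD). SDHA had a signal of 9.18 in shRNA CSS cells, 9.40 in shRNA FCS cells, 8.82 in control CSS cells and 9.45 in control FCS cells. SDHC had 8.85 in shRNA CSS cells, 8.77 in shRNA FCS cells, 8.47 in control CSS cells and 9.00 in control FCS cells. SDHD had 7.89 in shRNA CSS cells, 8.23 in shRNA FCS cells, 7.31 in control CSS cells and 7.73 in control FCS cells. All 3 were thus lowest on the control CSS array, the array with the raised ACTB ratio, and the part of that ratio in these values was not tested. In CSS the shRNA array was higher than control for all 3, by 0.36 for SDHA, 0.38 for SDHC and 0.57 for SDHD, and the median of the 3 was 0.07 on the deposited values, where that of all genes was -0.20. In FCS the shRNA gave -0.05 for SDHA, -0.24 for SDHC and 0.50 for SDHD. For CSS in shRNA cells, which does not use the control CSS array, the changes were -0.22 for SDHA, 0.08 for SDHC and -0.34 for SDHD. These moved with the scaling, to -0.52, -0.30 and -0.84 on the deposited values and -0.25, -0.03 and -0.56 with a common median, so that SDHC changed sign. SDHA was called for CSS (-0.43, SE 0.12, limma adjusted p = 0.0187), whereas SDHC (adjusted p = 0.52) and SDHD (adjusted p = 0.42) were not. The SDHA call was lost on the deposited values, with a common median, with no floor, with the minimum at 100 and without the trend. The SDHA probe set and the brightest SDHC probe set are of the type that can match related sequences, and SDHA has close pseudogenes, so that their values are uncertain. The other 3 SDHC probe sets gave -0.44, -0.21 and -1.01 for CSS alone, and 0.23, -0.05 and 0.27 for shRNA in CSS.

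Complex III differed little between arrays. Its 7 members had medians of 0.02 with the combined treatment (-0.16 as deposited and 0.12 with a common median), 0.14 for shRNA in FCS and -0.04 for CSS alone. All 7 were lower for CSS in shRNA cells, with changes between -0.30 and -0.02, and 5 of 7 were lower with a common median of the arrays. UQCRC1 and UQCRC2, the core proteins, were 0.23 and 0.24 higher for shRNA in FCS, and UQCRC2 gave 0.35 in its other probe set. UQCRQ, a small accessory subunit, had 10.63 in shRNA CSS cells, 10.93 in shRNA FCS cells, 10.95 in control CSS cells and 11.05 in control FCS cells, a change of -0.43 with the combined treatment (local spread 0.21). CYC1 (cytochrome c1) lay between -0.12 and 0.04 against control FCS cells. The small subunits UQCR10, UQCR11 and UQCRB lay between -0.18 and 0.18 in the same comparisons. No member of complex III was called for either factor.

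Complex IV has ubiquitous and tissue-restricted isoforms. COX6A1, the ubiquitous isoform, had 12.12 in shRNA CSS cells, 12.19 in shRNA FCS cells, 12.11 in control CSS cells and 12.18 in control FCS cells. Its muscle counterpart COX6A2 had 4.71 in shRNA CSS cells, 4.36 in control FCS cells and the floor of 4.32 on the remaining arrays. COX7A2 had 10.68 in shRNA CSS cells, 10.77 in shRNA FCS cells, 10.87 in control CSS cells and 10.91 in control FCS cells, and the muscle isoform COX7A1 had 4.73 in shRNA CSS cells, the floor in shRNA FCS cells, 4.37 in control CSS cells and 4.52 in control FCS cells. Both muscle isoforms thus stood just above the floor where measured and were highest on the combined array. Of the other muscle genes, MYH7 was at the floor on all 4 arrays and CKM had 4.35 on the combined array and the floor on the others. MB (myoglobin) had 8.25 on the combined array and 7.80 to 8.23 on the others, and the part of these genes in the isoform values was not tested.

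COXFA4L2, formerly NDUFA4L2 and known as a HIF target that replaces COXFA4 (NDUFA4) in low oxygen, had a signal of 6.21 in shRNA CSS cells, 4.82 in shRNA FCS cells, 4.84 in control CSS cells and 4.55 in control FCS cells. It was high only on the combined array among these 4, with a change of 1.66 (local spread 1.01), against 0.27 for shRNA in FCS and 0.29 for CSS alone. The combined change exceeded the sum of the single changes by 1.10. No call was made for the shRNA (limma adjusted p = 0.47) or CSS (adjusted p = 0.44), and the additive fit has no term for such a departure. Fibroblast genes, dim on these arrays, were also higher on the combined array (5 of 5, median 0.54), as were the 2 leukocyte genes above the floor (median 0.96), and the part of that array's shift at low signal in the value of COXFA4L2 was not tested. COXFA4 itself had 10.24 in shRNA CSS cells, 10.49 in shRNA FCS cells, 10.21 in control CSS cells and 10.39 in control FCS cells.

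Of the ubiquitous subunits of complex IV, COX6B1 was called for CSS. It had 10.09 in shRNA CSS cells, 10.40 in shRNA FCS cells, 9.97 in control CSS cells and 10.31 in control FCS cells, with a main effect of CSS of -0.32 (SE 0.10, limma adjusted p = 0.0312), and was not called on the deposited values, with a common median or without the trend. COX5A, which binds a thyroid hormone metabolite in biochemical studies, had 10.25 in shRNA CSS cells, 10.64 in shRNA FCS cells, 10.41 in control CSS cells and 10.58 in control FCS cells (CSS adjusted p = 0.067). COX7B was 10.33 in shRNA FCS cells, against 9.83 to 9.96 on the other 3 arrays. Both COX6B1 and COX5A were lower on the CSS arrays than on the FCS arrays, by 0.17 to 0.39 between arrays of the same vector. For CSS alone 12 of the 14 complex IV genes were lower (all genes 46.7%), among them COX6A2 and COX7A1 at or near the floor, with a median of -0.09 that was -0.15 as deposited and -0.16 with a common median.

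Complex V had medians of -0.01 with the combined treatment (-0.14 as deposited and 0.14 with a common median), 0.07 for shRNA in FCS and -0.02 for CSS alone over 15 members. ATP5F1B, the catalytic β subunit, had 11.36 in shRNA CSS cells, 11.45 in shRNA FCS cells, 11.09 in control CSS cells and 11.13 in control FCS cells. Both shRNA arrays lay above both control arrays, with a main effect of the shRNA of 0.29 (SE 0.08, limma adjusted p = 0.0146), the only call for the shRNA among the 67 subunits, which was lost on the deposited values, with a common median and without the trend. ATP5F1A, the other main subunit of the F1 head, had 11.67 in shRNA CSS cells, 11.71 in shRNA FCS cells, 11.53 in control CSS cells and 11.55 in control FCS cells (adjusted p = 0.40). ATP5F1C differed by no more than 0.08 from control FCS cells in its brightest probe set. ATP5F1E, the ε subunit, had 9.98 in shRNA CSS cells, 10.24 in shRNA FCS cells, 10.29 in control CSS cells and 10.17 in control FCS cells. ATP5F1D, the δ subunit of the central stalk, was 8.43 in shRNA CSS cells, 8.07 in shRNA FCS cells, 8.41 in control CSS cells and 7.94 in control FCS cells. Both CSS arrays stood above both FCS arrays, and a dimmer probe set gave 0.51 with the combined treatment beside 0.49, but CSS was not called (adjusted p = 0.20). On the deposited values ATP5F1D was 0.05 with the combined treatment and -0.08 for CSS in shRNA cells, so that this order of the arrays did not hold there.

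Subunit c of complex V, which forms the membrane ring, is made from 3 genes that encode the same mature protein. ATP5MC1 had a signal of 8.44 in shRNA CSS cells, 9.00 in shRNA FCS cells, 8.40 in control CSS cells and 9.11 in control FCS cells. The CSS arrays lay below the FCS arrays, with a main effect of CSS of -0.64 (SE 0.14, limma adjusted p = 0.000475), a call lost on the deposited values and without the trend. ATP5MC2 was 10.60 in shRNA CSS cells, 10.30 in shRNA FCS cells, 10.53 in control CSS cells and 10.50 in control FCS cells. ATP5MC3 was 10.29 in shRNA CSS cells, 10.50 in shRNA FCS cells, 10.02 in control CSS cells and 10.18 in control FCS cells, with 0.31 for shRNA in FCS and 0.27 for shRNA in CSS (adjusted p = 0.0527). The other ATP5MC3 probe set gave 0.28 for shRNA in FCS (local spread 0.25) and 0.14 for shRNA in CSS (local spread 0.22). The order of the arrays thus differed among the 3 genes, although the difference between genes was not tested.

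Among the 9 other members, SDHAF1, an assembly factor of complex II, had 7.66 in shRNA CSS cells, 6.85 in shRNA FCS cells, 6.96 in control CSS cells and 6.95 in control FCS cells. It was higher on the combined array than on the other 3 in both of its probe sets, by 0.71 and 0.75 against control FCS cells, although the brighter gave 0.21 on the deposited values. SDHAF3 was at the floor in shRNA CSS cells, against 5.00 to 5.11 on the other arrays. NDUFAF4, an assembly factor of complex I, had 6.62 in shRNA CSS cells, 7.58 in shRNA FCS cells, 6.56 in control CSS cells and 7.00 in control FCS cells. ATP5IF1, the inhibitor of ATP synthase, was highest in control FCS cells at 9.91, against 9.40 in shRNA CSS cells, 9.43 in shRNA FCS cells and 9.41 in control CSS cells. DMAC2, a complex I assembly factor that was once named after ATP5, was 8.22 in shRNA CSS cells, 8.08 in shRNA FCS cells, 7.86 in control CSS cells and 7.76 in control FCS cells. COX7A2L, a factor of supercomplexes, lay between -0.11 and 0.14 against control FCS cells. None of the 9 was called for either factor.

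Several kept probe sets were present for 21 of the 76 members, and the 76 members together had 108 kept probe sets. For DMAC2L the brighter probe set gave -0.21 with the combined treatment and the dimmer -1.85, so that in this comparison its direction was shared but its size was not. For shRNA in FCS they gave -0.44 and -0.46. The signs were opposite for CSS alone (-0.37 and 0.05), shRNA in CSS (0.16 and -1.90) and CSS in shRNA cells (0.23 and -1.38). With the combined treatment ATP5F1C, COX5B and COX7C gave nearly equal values in their brighter probe sets and departed in dimmer ones. An example is 0.49 in the dimmest COX5B probe set against 0.00 in the brightest. COX4I1 differed between bright probe sets. The brightest gave 0.04 with the combined treatment and 0.07 for shRNA in CSS, another bright one 0.27 and 0.28, and a dim one -0.44 and -0.35.

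Other mitochondrial genes were described from fixed lists, in which CYC1 and 5 assembly factors appear again. Of 49 mitochondrial ribosomal proteins 31 were lower with the combined treatment, where 47.4% of all genes were, with a median of -0.16 that was -0.57 as deposited and -0.29 with a common median. Lower were 37 for CSS in shRNA cells (all genes 47.8%), with a median of -0.18 that was -0.63 as deposited and -0.36 with a common median. For CSS alone 31 of 48 were lower (all genes 46.7%), with a median of -0.12. For shRNA in FCS 18 of 48 were lower (all genes 49.9%), with a median of 0.10. Of the 49, 7 were called lower for CSS (all genes 2.64% called) and 2 higher for the shRNA (all genes 3.94%). MRPL9 had 8.32 in shRNA CSS cells, 9.01 in shRNA FCS cells, 8.68 in control CSS cells and 9.36 in control FCS cells. MRPL28 had 7.87 in shRNA CSS cells against 6.83 to 6.85 on the other arrays. Of 20 citrate cycle and pyruvate dehydrogenase genes 15 were lower for CSS in shRNA cells (all genes 47.8%), with a median of -0.36 that was -0.71 as deposited and -0.44 with a common median. For CSS alone 12 of these 20 were lower (all genes 46.7%), with a median of -0.05. For shRNA in FCS 5 were lower (all genes 49.9%), with a median of 0.17. SUCLA2 and SUCLG2, subunits of succinyl-CoA synthetase, were 6.23 and 4.64 in shRNA CSS cells, against 7.48 and 6.08 in control FCS cells. DLD, the shared E3 subunit of the dehydrogenases, had 8.67 in shRNA CSS cells, 9.34 in shRNA FCS cells, 8.73 in control CSS cells and 9.35 in control FCS cells, with CSS below FCS for each vector. DLD and PDHB were called lower for CSS, and MDH1 was called higher and IDH2 lower for the shRNA.

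Assembly factors had a median of -0.16 with the combined treatment over 25 genes, which was -0.52 as deposited and -0.24 with a common median, and 4 of them were at least 2-fold lower (all genes 6.9%). TMEM126B was called lower for CSS, LRPPRC higher for the shRNA, and no other gene of this list but COX11 was called. COX11, a copper chaperone of complex IV, had 7.06 in shRNA CSS cells, 7.84 in shRNA FCS cells, 8.15 in control CSS cells and 8.45 in control FCS cells, and was called lower for the shRNA (limma adjusted p = 0.000574). COA1 and COX10 were lower too, at -1.85 and -1.04, and both lay near the floor on the combined array. Regulators of mitochondrial biogenesis had the lowest median of these lists with the combined treatment, at -0.31 over 22 genes (-0.60 as deposited). Of these 16 were lower (all genes 47.4%), with POLG, the mitochondrial DNA polymerase, at -1.25, MTERF3 at -0.88 and NRF1 at -0.84 (local spread 1.07). The other 6 were higher, with TWNK at 0.79 (local spread 0.72). NRF1 had 4.52 on the combined array, near the floor, and was 0.57 higher for shRNA in FCS. For shRNA in FCS 6 of the 22 were lower (all genes 49.9%), with a median of 0.15. For CSS alone 11 were lower (all genes 46.7%), with a median of -0.02. None of the 22 was called for either factor. The combined changes of many of these genes are at low signal, where the local spread of that comparison was widest. Electron carriers were lower with CSS alone in 8 of 9 genes (median -0.20), where 46.7% of all genes were. CYCS (cytochrome c) was 10.27 in shRNA CSS cells, 10.58 in shRNA FCS cells, 10.28 in control CSS cells and 10.56 in control FCS cells, and ETFB was the exception at 0.32 and the single call of the list for CSS. In the redox and carrier list UCP2, an uncoupling protein, had 6.80 in shRNA CSS cells against 4.32 to 4.40 on the other arrays, and SLC25A5, an ADP/ATP carrier, had 11.16 in shRNA CSS cells, 11.67 in shRNA FCS cells, 11.20 in control CSS cells and 11.72 in control FCS cells. SLC25A5 and VDAC3 were called lower for CSS in that list. Protein import genes had medians of 0.05 with the combined treatment, which was -0.39 as deposited and -0.13 with a common median, and 0.14 for shRNA in FCS over 20 genes, of which TIMM17A was called lower for the shRNA.

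**Figure D4:**
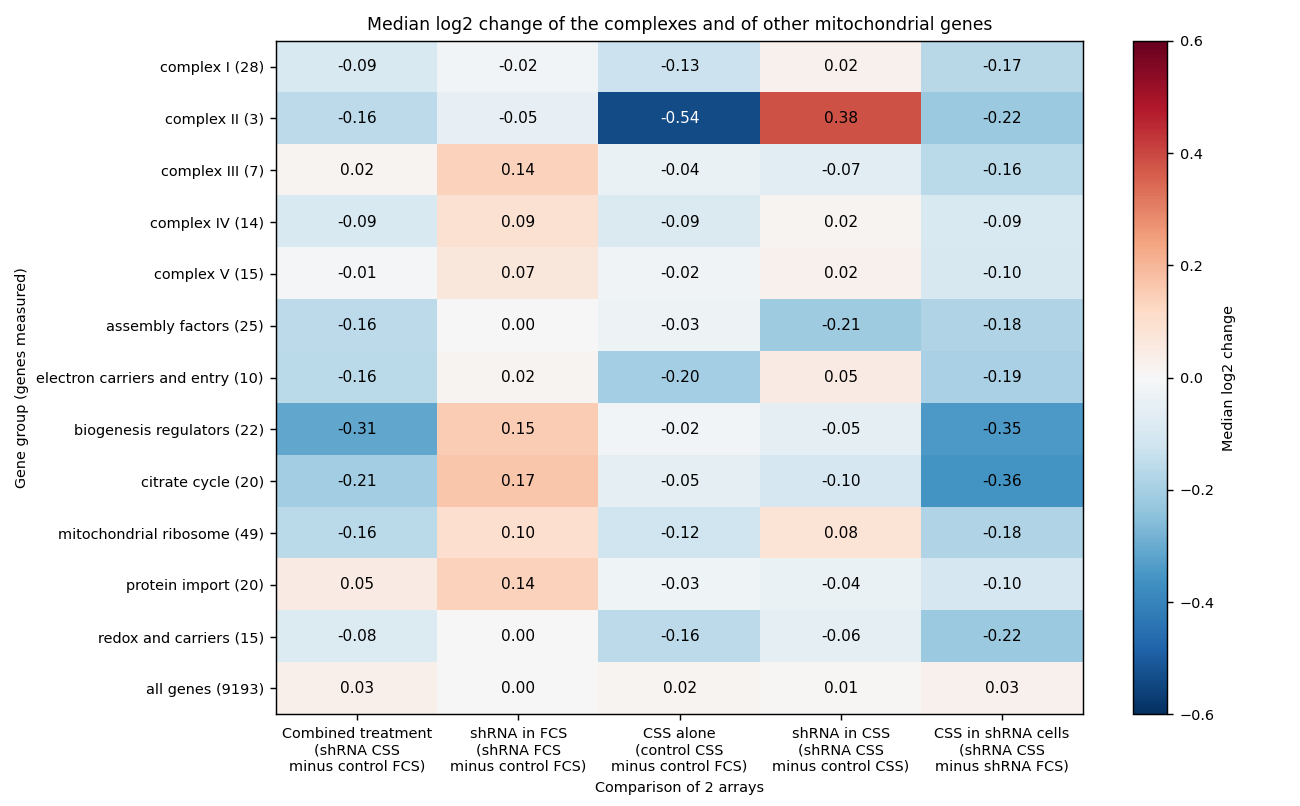
Median log2 change (colour and printed value) of the 5 complexes, of 7 other mitochondrial gene lists and of all genes (rows, with the number of genes measured) in 5 comparisons of 2 arrays (columns). All 12 mitochondrial groups lie below 0 for CSS in shRNA cells, between -0.36 and -0.09, beside 0.03 for all genes, although complex IV was at 0.03 and complex V at 0.07 with a common median of the arrays, where all genes were at 0.07.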

How the data were processed

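The deposited table holds log2 signals of 22277 probe sets on 4 arrays. The authors' methods name MAS5 signals, an intensity of at least 20 with a present call on 1 array, and quantile normalization. The deposited columns do not share a distribution and carry no present calls, so the minimum of 20 and the normalization were applied here, and whether the values are unchanged MAS5 signals is not known. The labels give 6 µg of RNA per sample, which differs from the study's text. With 62 Affymetrix controls removed, 15643 probe sets reached 20 on 1 array or more, and these were quantile normalized and set to a floor of log2 4.32. A change was not computed where both arrays were at the floor. Of the probe sets, 19070 are annotated to 1 gene, 1043 to several and 2164 to none, and only the first kind was used, with symbols updated from RefSeq. The brightest probe set stood for each gene. Genes named are members at least 2-fold different in any comparison, the 3 largest combined and 2 largest single changes per complex, isoform pairs, core subunits, and up to 4 genes of each other list. NDUFS4, SDHAF1, SDHAF3, NDUFAF4, DMAC2, CYC1 and NDUFC1, MB, TWNK and the called genes of the other lists were added after their values were seen. Main effects were tested with limma 3.58.1 (R 4.3.3) at an adjusted p (Benjamini-Hochberg over 8858 genes) of 0.05, after tests on simulated data. The simulated noise had the same size at every signal, and no interaction was simulated. Those tests therefore could not check the variance trend on which the calls rest. Python 3.11.15 with pandas 2.3.3 and numpy 2.4.6 served for the rest. The members and gene lists were chosen with earlier results of these data known. Alternatives were the deposited values, a common median, no floor, other minimums, the mean over probe sets, other thresholds and limma without the trend; leaving out probe sets that can match related sequences, and normalizing without the combined array, were added after seeing the data.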

Additional observations from a re-analysis of the deposited data

Results flagged for a closer look

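Medians of 3 complexes had opposite signs for the shRNA in CSS and in FCS, a difference that was not tested. Complex II had 0.38 for shRNA in CSS and -0.0469 for shRNA in FCS over 3 genes. The 0.38 is the value of the brightest SDHC probe set, and this median was 0.07 as deposited and 0.38 with a common median. Complex III had -0.0672 for shRNA in CSS and 0.14 for shRNA in FCS over 7 genes, and complex I had 0.0235 for shRNA in CSS and -0.018 for shRNA in FCS over 28 genes, both near 0. For shRNA in CSS these medians depended on the scaling, at -0.18 as deposited and 0.13 with a common median for complex III and at -0.17 and 0.14 for complex I, so that with a common median complex III had the same sign in both sera.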

How the results depend on the processing

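Scaling moved most the comparisons that use the combined array. As deposited, the median for the combined treatment was -0.28 for the subunits and -0.16 for all genes, and with a common median it was 0.01 and 0.11, so that the subunits lay 0.10 to 0.12 below all genes under these settings and the main one (differences of -0.12, -0.10 and -0.10). For CSS in shRNA cells the difference from all genes was -0.16 in the main setting, -0.11 as deposited and -0.10 with a common median. For CSS alone the subunit median was -0.13 as deposited and -0.12 with a common median, against -0.07 in the main setting. For shRNA in CSS the subunit median was -0.13 as deposited (all genes -0.20) and 0.17 with a common median (all genes 0.08), so its sign depends on the scaling. The combined medians of complexes III, IV and V changed sign as well, at -0.16, -0.17 and -0.14 as deposited and 0.12, 0.12 and 0.14 with a common median. Lists also moved relative to all genes, and protein import, at 0.05 with the combined treatment (all genes 0.03), was at -0.39 as deposited (all genes -0.16) and -0.13 with a common median (all genes 0.11).

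Limma counts moved by more than 1.5 times with the scaling and without the trend. For CSS, 2 subunits were called on the deposited values (NDUFB8 and NDUFA6), 3 with a common median (with ATP5MC1) and 0 without the trend. For the shRNA, 0 were called in each of these settings, where unadjusted p was below 0.05 for 4, 4 and 0 subunits. The count of all genes called for CSS was 234 in the main setting, 23 on the deposited values, 72 with a common median and 0 without the trend, and for the shRNA it was 349, 43, 162 and 0. NDUFB8 was called for CSS in every setting but the one without the trend. NDUFA5, which missed the threshold in the main setting, was called for CSS with the minimum at 100 (adjusted p = 0.0136) and with the mean over probe sets (adjusted p = 0.0177), where NDUFA6 was not; SDHA was also not called with no floor or with the minimum at 100. On the deposited values 6 subunits were at least 2-fold lower with the combined treatment, against 1 in the main setting. All genes moved down as well, with a median of -0.16 on the deposited values, against 0.03 in the main setting. The share of all genes at least 2-fold lower is given here for the main setting only, so the 6 cannot be set beside it. No paired analysis was possible because each condition had 1 array, and leaving out an array would remove a condition.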
